A study of Mus musculus with 3 samples.

Results

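The genes described here move and buffer zinc, copper and manganese. They were chosen by symbol: the zinc importers of the Slc39a family, the zinc exporters of the Slc30a family, the metallothioneins Mt1 to Mt4, the copper carriers Slc31a1, Slc31a2, Atp7a, Atp7b, Atox1, Ccs and Cox17, the manganese and iron carrier Slc11a1, and the zinc-sensing factor Mtf1. The rule found 35 of the 17285 rows of the table: 13 importers, 10 exporters, 3 metallothioneins, 7 copper genes, and Mtf1 and Slc11a1. Mt4 and Slc39a12 had no row under their symbols and were not analysed here. RNA came from B16, a mouse melanoma cell line, made to carry an empty vector stably (Mock), and was sequenced in 3 libraries, Mock replicates 1, 2 and 3, of the same line. All 3 form 1 group, so there is no contrast between conditions: each level was set against 1 CPM (counts per 1000000 reads, scaled by edgeR's TMM factors), against a reference gene of its own family, and between libraries. Separate cultures are not mentioned in the labels, and the p-values therefore describe the spread among these 3 samples, which could be technical alone.

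In mammalian cells Slc39a proteins (ZIPs) bring zinc into the cytosol, and Slc30a proteins (ZnTs) move it out of the cytosol, into organelles or across the plasma membrane. Metallothioneins are small cysteine-rich proteins that bind zinc and copper, and Mtf1 switches on their genes when cytosolic zinc rises. Copper enters through Slc31a1 and is handed by chaperones to the copper pumps, to superoxide dismutase and to mitochondria. In pigment cells the pump Atp7a supplies copper to tyrosinase, the copper enzyme that starts melanin synthesis.

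The libraries held 9328087 to 9456501 counts, so a read was worth about 0.106 CPM and a gene at 1 CPM was expected to collect 28.2 reads in all. No counts in any library allow a level of up to 0.106 CPM (3 counts over the group, a limit for counting error alone). All 8 melanocyte markers were above 1 CPM by edgeR, with summed levels of 23050 to 24380 CPM. Of 5 leukocyte markers measured, 3 had no counts and the summed level was 0 to 0.530 CPM. Of 4 neuron and astrocyte markers and 3 keratinocyte markers, the summed level of each list reached at most 0.106 CPM. The extraction text also mentions organs. The liver markers Alb and Apoa1 had 4 reads together, and the gut marker Vil1 had 2.

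Most of the metal transport genes were transcribed in B16 cells, and the metallothioneins were the most abundant among them. Of the 30 genes with a count, 25 were above 1 CPM (edgeR, quasi-likelihood F test, Benjamini-Hochberg adjusted), 4 were below and Atp7b had no call. That is 83.3% above and 13.3% below, beside 74.3% and 20.2% of all 14408 genes tested, so the share above differed little from that of the table. Slc39a5, Slc39a8, Slc30a8, Slc30a10 and Mt3, 5 in number, had no counts, or 14.3% of the 35 beside 16.6% of all rows. The median level was 26.5 CPM over the 35 genes and 12.61 CPM over all rows. In bulk RNA, fewer cells with a transcript and less of it per cell cannot be told apart. Each of the 25 genes lay above 1 CPM in 3 of 3 libraries, with 6.41 CPM as the lowest value in any library and an adjusted p of at most 2.20e-08 (edgeR). The plot of levels by gene sets the families side by side.

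**Figure D1:**
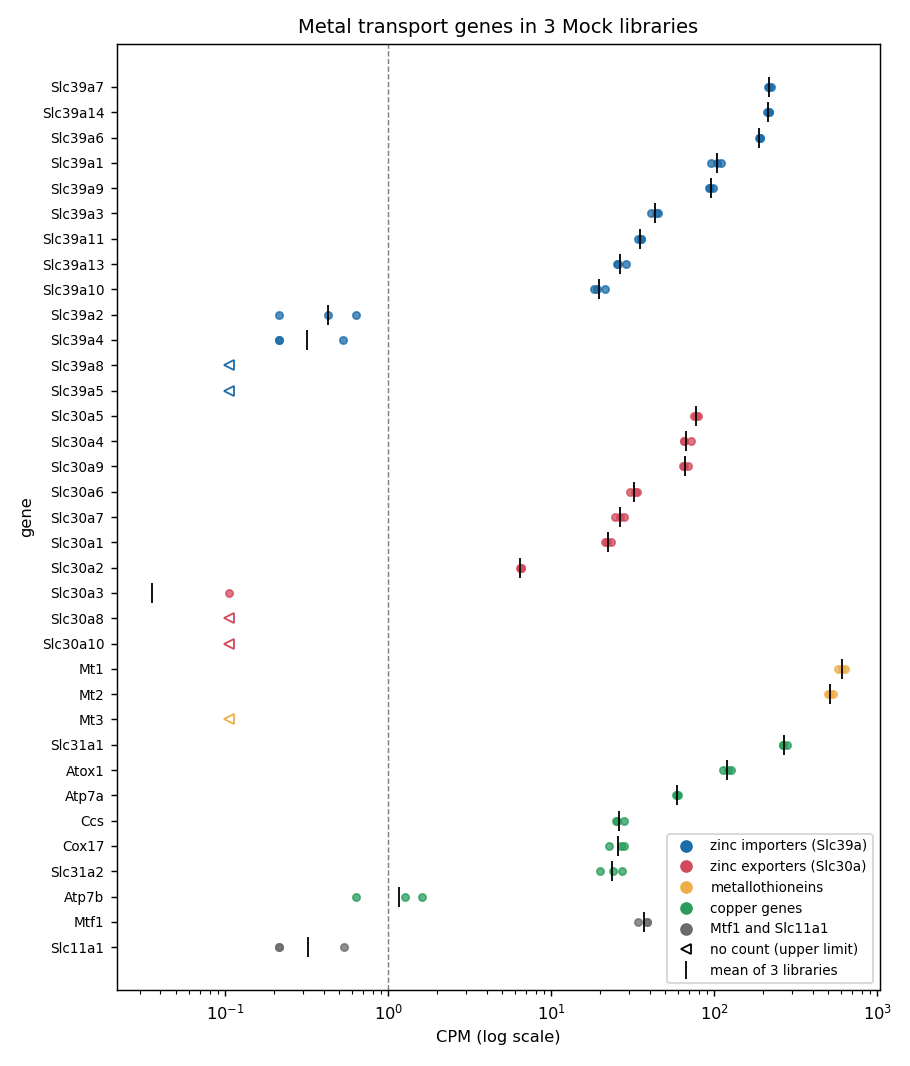
Level of each gene in CPM (log scale), 1 point per library with at least 1 read and a short vertical line at the mean of the 3 libraries, coloured by family. The dashed line marks 1 CPM, and open triangles mark genes with no count at the upper limit of 0.106 CPM. Mt1 and Mt2 lie highest, at 605 and 514 CPM, and 4 genes with counts lie below the line in every library: Slc39a2, Slc39a4, Slc30a3 and Slc11a1.

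The metallothionein genes Mt1 and Mt2 were abundant, while Mt3 was silent at this depth. Mt1 stood at 634.8, 569.6 and 610.4 CPM in replicates 1, 2 and 3, a mean of 605 ± 33.0 CPM (SD, n = 3, as for all means below). Mt2 stood at 531.8, 496.6 and 513.1 CPM, a mean of 514 ± 17.7 CPM. Both were lowest in replicate 2 and highest in replicate 1, and their ranges did not overlap. Mt3, the metallothionein known from brain, had no counts. The 3 genes are neighbours on chromosome 8 of GRCm38 (plus strand): Mt3 at 94152607 to 94154146, Mt2 at 94172664 to 94173568 and Mt1 at 94179082 to 94180327. Per kilobase of annotated exon, Mt2 ranked 22nd and Mt1 59th of 16838 genes with a length. Per kilobase of principal transcript (explained below), Mt1 ranked 38th and Mt2 49th.

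Which of Mt1 and Mt2 was higher per length depended on the gene model. On the merged annotated exons (1246 bases for Mt1, 588 for Mt2), Mt2 was above Mt1 at a log2 ratio of 0.85 ± 0.03, by limma. The merged exons of Mt1 span its whole locus, because some annotated forms keep introns. That length therefore counts introns as exon, and the call of Mt2 above Mt1 rests on it. On the APPRIS principal transcripts, the main protein-coding forms (549 and 511 bases), the log2 ratio was -0.13 ± 0.03 and was not called (limma adjusted p = 0.181). In reads with no length correction Mt2 was below Mt1, at -0.23. The SD of the log2 ratio over the 3 libraries was 0.0318. Of all genes tested, 0.341% were called above Mt1 per length of merged exons and 99.5% below. An annotated antisense transcript, Gm45774, covers 73.47% of the exon bases of Mt2, and how the counting treated strand is not known.

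Of the members tested, 1 was called as varying between libraries beyond counting error, a share near that of all genes. The Poisson deviance test covered the 26 members with a mean of at least 10 counts. It called Mt1 alone (adjusted p = 6.93e-06), beside 3.31% of all 11000 genes tested. Such a test detects smaller differences in genes with more counts, and Mt1 had the most counts of the members (17071). The share of all genes is not matched for counts. The highest of its library levels was 1.115 times the lowest. Mt2 had an adjusted p of 0.078 with the same order of libraries. Slc31a2, at 19.87, 23.85 and 27.15 CPM, had the widest relative spread of the 25 genes above 1 CPM, a coefficient of variation of 15.4%, and was not called (0.0998). The narrowest was Slc30a2, at 6.410, 6.466 and 6.470 CPM. Without replicate 2, Mt1 was no longer called (adjusted p = 0.312), so its variation rests on that library.

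**Figure D2:**
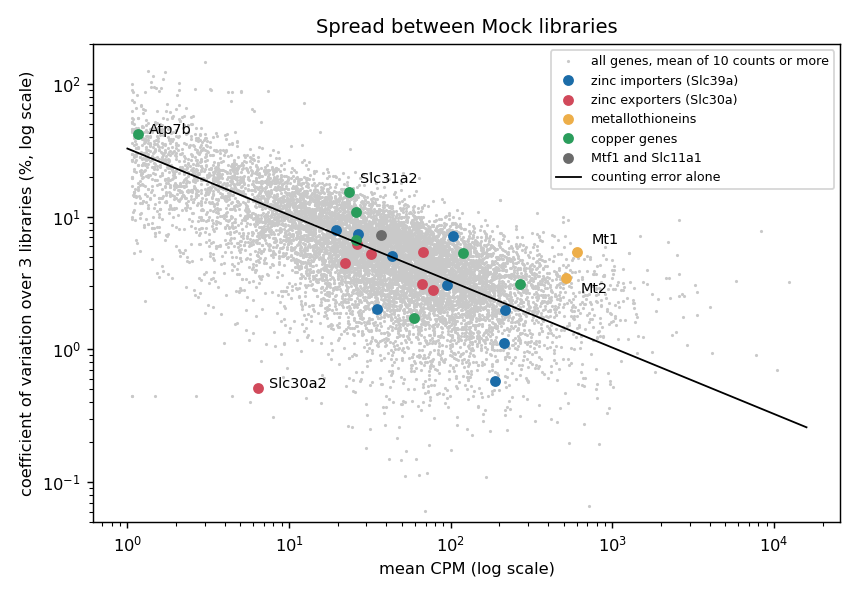
Coefficient of variation over the 3 Mock libraries (percent, log scale) against mean level in CPM (log scale), 1 point per gene, members coloured and in grey every gene averaging 10 counts or more with a spread above 0. The line is the spread that counting error alone gives at the mean library size. Mt1 and Mt2 lie above the line at their abundance, at 5.45% and 3.43%, and Slc30a2 lies far below it at 0.514%.

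Mtf1, the factor that binds metal response elements, was transcribed at 38.47, 38.77 and 33.99 CPM, a mean of 37.1 ± 2.68 CPM. Its counts were fractional, and 8.09% of its exon bases overlap a gene on the other strand, 1110065P20Rik. That gene had 859.67 counts in all, beside 1046.33 for Mtf1. How reads were divided between them is not known, so the level of Mtf1 is uncertain by an unknown amount. Slc30a1 is a further gene known to be switched on by Mtf1. Printed here are the promoters of Mt1, Mt2, Mt3 and Slc30a1, genes of very different levels. They show where words matching the core of the metal response element occur, or that none does. Binding of Mtf1 to these promoters was not tested. They come from RefSeq (GRCm38.p6), from 250 bases before to 30 after the annotated start, on the plus strand, 5′ to 3′. RefSeq and GENCODE starts can differ: the window of Mt2 ends at 94172647, before its GENCODE start at 94172664. Of 34 member windows, 25 had their 30 bases after the start in a GENCODE transcript of the gene. Capitals mark the core of the metal response element, searched on both strands as TGCACNC or TGCGCNC.
Mt1 (chr8:94178839-94179118): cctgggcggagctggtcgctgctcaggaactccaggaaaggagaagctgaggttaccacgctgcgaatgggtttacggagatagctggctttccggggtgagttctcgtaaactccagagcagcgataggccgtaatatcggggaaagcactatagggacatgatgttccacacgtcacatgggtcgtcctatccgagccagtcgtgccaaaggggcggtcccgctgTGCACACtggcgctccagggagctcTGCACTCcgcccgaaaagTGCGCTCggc
Mt2 (chr8:94172368-94172647): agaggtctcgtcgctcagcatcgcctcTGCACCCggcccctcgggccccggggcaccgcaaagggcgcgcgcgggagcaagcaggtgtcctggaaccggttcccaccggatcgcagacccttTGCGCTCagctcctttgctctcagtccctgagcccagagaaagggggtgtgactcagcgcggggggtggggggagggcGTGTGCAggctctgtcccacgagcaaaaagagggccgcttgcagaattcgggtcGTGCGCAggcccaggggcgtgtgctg
Mt3 (chr8:94152357-94152636): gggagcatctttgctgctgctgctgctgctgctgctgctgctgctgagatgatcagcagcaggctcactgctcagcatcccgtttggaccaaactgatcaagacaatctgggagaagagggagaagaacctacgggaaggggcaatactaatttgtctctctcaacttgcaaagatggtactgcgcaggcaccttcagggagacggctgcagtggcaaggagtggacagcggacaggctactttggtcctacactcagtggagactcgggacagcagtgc
Slc30a1 (chr1:191906531-191906810): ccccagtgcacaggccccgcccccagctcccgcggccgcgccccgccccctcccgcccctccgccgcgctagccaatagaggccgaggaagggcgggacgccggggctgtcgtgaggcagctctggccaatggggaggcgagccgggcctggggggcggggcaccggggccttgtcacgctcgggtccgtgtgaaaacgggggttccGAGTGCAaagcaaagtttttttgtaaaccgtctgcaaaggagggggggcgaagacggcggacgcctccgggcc

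The core word occurred 3 times in the Mt1 window, all on the forward strand, and 4 times in the Mt2 window, of which 2 were on the reverse strand. In Mt1 the words at 3 to 9 and 21 to 27 bases lie after the annotated start. Bases more than 30 after a start were not searched, so these counts describe the windows alone. Slc30a1, at 22.2 ± 0.990 CPM, had 1 word, on the reverse strand. The Mt3 window held none, which says only that these letters are not in it. Among the windows of the 29 members with a promoter in the RefSeq table, 17 of 34 held at least 1 core word, beside 24.1% of all 32851 windows of this length. At least 3 words stood in 4 member windows (11.8%), those of Mt1, Mt2, Slc30a4 and Slc30a10, beside 1.73% of all. These differences were not tested, the windows were not matched for base composition, and some members have more than 1 window. In Slc30a10 a forward and a reverse word overlap. Windows with and without the word occurred at high and low levels alike: Slc30a10 had no counts, whereas Slc31a1 and Atox1, both above 100 CPM, had no word. Ccs, Cox17, Slc30a8, Slc39a4, Slc39a6 and Slc39a14 were not in that table.

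**Figure D3:**
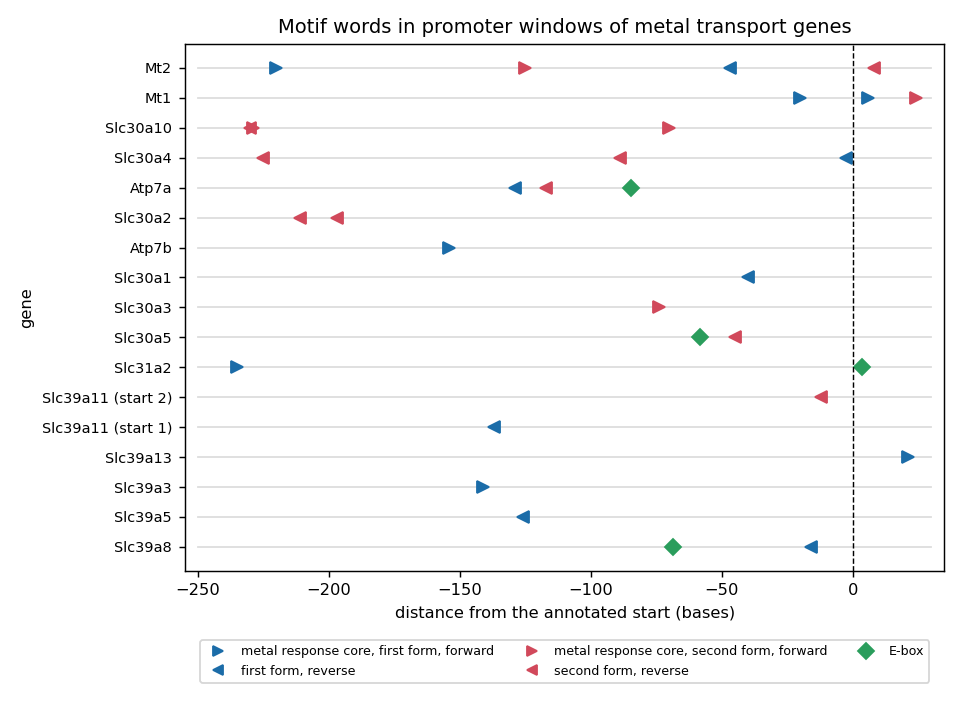
Positions of the motif words in the promoter windows, in bases from the annotated start (dashed line), for the member windows with at least 1 word. Triangles mark the metal response core (first form TGCACNC in blue, second form TGCGCNC in red, pointing right on the forward and left on the reverse strand), and diamonds mark the E-box CACGTG. Mt2 has 4 triangles and Mt1 has 3. The last of Mt2 and all but the first of Mt1 lie after the RefSeq start.

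Zinc importers were led by Slc39a7, Slc39a14 and Slc39a6 in reads. Of 13 Slc39a genes, 9 were above 1 CPM and 2 below, and Slc39a5 and Slc39a8 had no counts. Slc39a7, which releases zinc from the endoplasmic reticulum, stood at 215.9, 222.1 and 213.7 CPM (217 ± 4.32 CPM). Slc39a14, a carrier of zinc, manganese and iron at the cell surface, stood at 215.6, 211.2 and 215.1 CPM (214 ± 2.38 CPM). Their ranges overlapped. Slc39a6, a plasma membrane importer, was lower in each library at 189.2, 187.7 and 189.8 CPM (189 ± 1.10 CPM). The annotation also holds Gm20427, a transcript model that covers 80.65% of the exon bases of Slc39a7 on the same strand. It had no row in the table, so the level of Slc39a7 is uncertain to the extent that reads were divided between them.

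The other importers above 1 CPM formed a lower tier. Slc39a1, a plasma membrane importer of most tissues, reached 103 ± 7.34 CPM, and Slc39a9, of the Golgi and cell surface, 94.9 ± 2.91 CPM. Of the 31-base words of Slc39a1, 27.69% also occur in other genes, among them its pseudogene Slc39a1-ps, so its level is uncertain too. Slc39a3, also of the plasma membrane, stood at 43.5 ± 2.18 CPM, Slc39a11 at 35.04 ± 0.712 CPM, Slc39a13, known for its part in connective tissue, at 26.5 ± 1.96 CPM and the plasma membrane importer Slc39a10 at 19.6 ± 1.55 CPM. Slc39a4, the intestinal importer mutated in zinc deficiency of the skin and gut, had 2, 2 and 5 reads, or 0.319 ± 0.183 CPM. Slc39a2 had 4, 2 and 6 reads, or 0.425 ± 0.212 CPM. Both were below 1 CPM (edgeR adjusted p = 0.00682 and 0.0181), in 3 of 3 libraries. Neither call held in every setting: over the alternatives the adjusted p reached 0.0674 for Slc39a4 (without replicate 1) and 0.113 for Slc39a2 (without replicate 1). On the other strand, Erh (5196 counts) overlaps 4.52% of the exon bases of Slc39a9, and Psmc3 (3375 counts) 4.42% of those of Slc39a13. On the same strand, Mettl17 (210 counts) overlaps 4.38% of those of Slc39a2. How reads were divided there is not known.

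Per length, Slc39a7 led the importers. Levels of different genes were compared as CPM per kilobase of merged exon, and Slc39a7 stood at 84.1 ± 1.67, Slc39a6 at 46.4 ± 0.269, Slc39a1 at 43.7 ± 3.10 and Slc39a14 at 20.3 ± 0.226. Against Slc39a1 in the same library, Slc39a7 was higher (log2 ratio 0.95 ± 0.09), Slc39a6 had no call (0.09 ± 0.11, limma adjusted p = 0.194), and the other 8 genes with a count were lower. In reads with no length correction Slc39a9 lost its call (log2 ratio -0.12, limma adjusted p = 0.112). Of all genes tested, 7.43% were above Slc39a1 and 90.5% below. The ranges of Slc39a6 and Slc39a1 overlapped, as did those of Slc39a3 and Slc39a11 and of Slc39a2 and Slc39a4. Together Slc39a6, Slc39a7 and Slc39a1 made up 74.4 ± 0.634% of the summed importer level. The ratios to a reference gene share that gene's own error in each library, so their tests are not independent of each other. Because limma pools the spread over genes that all carry this same error, its p-values for ratios can be too small.

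The place of Slc39a14 depended on the gene model, since its merged exons span 10550 bases and its principal transcript 4926. Per kilobase of principal transcript it stood at 43.4 ± 0.484, level with Slc39a1 at 43.7 ± 3.10 (log2 ratio -0.01 ± 0.12, limma adjusted p = 0.944). Slc39a6 was then called above Slc39a1 at 0.16 ± 0.11 (limma adjusted p = 0.0236), a call subject to the limit on ratio tests given above. Slc39a7 led in both, at 93.6 ± 1.86 per kilobase of principal transcript. Of all genes tested this way, 12.6% were above Slc39a1 and 84.4% below. Slc39a7, Slc39a6, Slc39a1 and Slc39a14 made up 83.1 ± 0.420% of the importer level by merged exons and 79.7 ± 0.404% by principal transcripts.

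**Figure D4:**
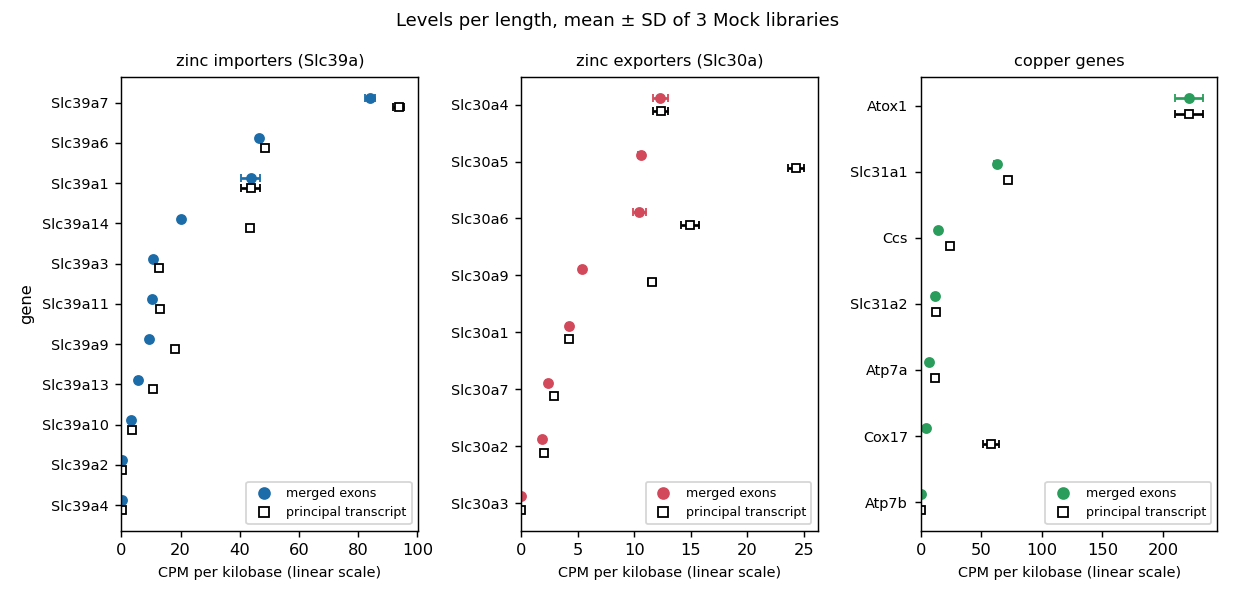
Levels in CPM per kilobase (mean with SD bars, 3 libraries, linear scale) of the importers, exporters and copper genes with a count, by merged exons (filled circles) and by principal transcripts (open squares). Slc39a7 and Atox1 lead their families on both scales, while Slc39a14, Slc30a5, Slc30a9 and Cox17 are among the genes whose value by principal transcripts is more than 2 times that by merged exons.

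Among the zinc exporters Slc30a5 had the highest mean in reads, followed by Slc30a4 and Slc30a9. Of 10 Slc30a genes, 7 were above 1 CPM and Slc30a3 was below, and Slc30a8 and Slc30a10 had no counts. Slc30a5 and Slc30a6, whose proteins pair in the early secretory pathway and supply zinc to its enzymes, reached 77.2 ± 2.15 and 32.1 ± 1.69 CPM. Slc30a7, which works in the same compartment, reached 26.3 ± 1.64 CPM. Slc30a4, an exporter into endosomes and vesicles, stood at 67.4 ± 3.62 CPM and Slc30a9, a mitochondrial zinc exporter, at 66.2 ± 2.05 CPM. Slc30a1, the exporter at the plasma membrane, stood at 21.26, 22.05 and 23.23 CPM, and Slc30a2, which fills secretory vesicles and is known from the mammary gland, at 6.45 ± 0.0331 CPM.

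The other 3 exporters had 1 read or none. Slc30a3, which loads synaptic vesicles, had 1 read in replicate 2 and none elsewhere (0.0353 CPM, edgeR adjusted p = 6.10e-04). Over the alternatives that p reached 0.0692, with DESeq2's Wald test. Slc30a8, the exporter of insulin granules, and Slc30a10, a manganese exporter, had no counts, so each lay under 0.106 CPM.

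Per kilobase of merged exon, Slc30a4 at 12.3 ± 0.661, Slc30a5 at 10.6 ± 0.295 and Slc30a6 at 10.5 ± 0.550 made up 70.8 ± 0.546% of the exporter level. The ranges of Slc30a5 and Slc30a6 overlapped. Against Slc30a1 (4.23 ± 0.189), 4 of the 7 other exporters with a count were higher and 3 lower, by limma, beside 50.6% and 44.7% of all genes. The log2 ratio was 1.54 ± 0.13 for Slc30a4, 1.32 ± 0.06 for Slc30a5, 1.30 ± 0.14 for Slc30a6 and 0.34 ± 0.10 for Slc30a9. It was -0.84 ± 0.15 for Slc30a7 and -1.22 ± 0.06 for Slc30a2. By principal transcripts Slc30a5 led at 24.3 ± 0.676, and the ratio to Slc30a1 was 2.52 for Slc30a5 and 1.45 for Slc30a9, beside 58.6% of all genes above Slc30a1 and 37.7% below. In reads with no length correction Slc30a7 was above Slc30a1, at 0.25. Pseudogenes on the other strand overlap Slc30a7 over 10.48% and 5.73% of its exon bases.

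**Figure D5:**
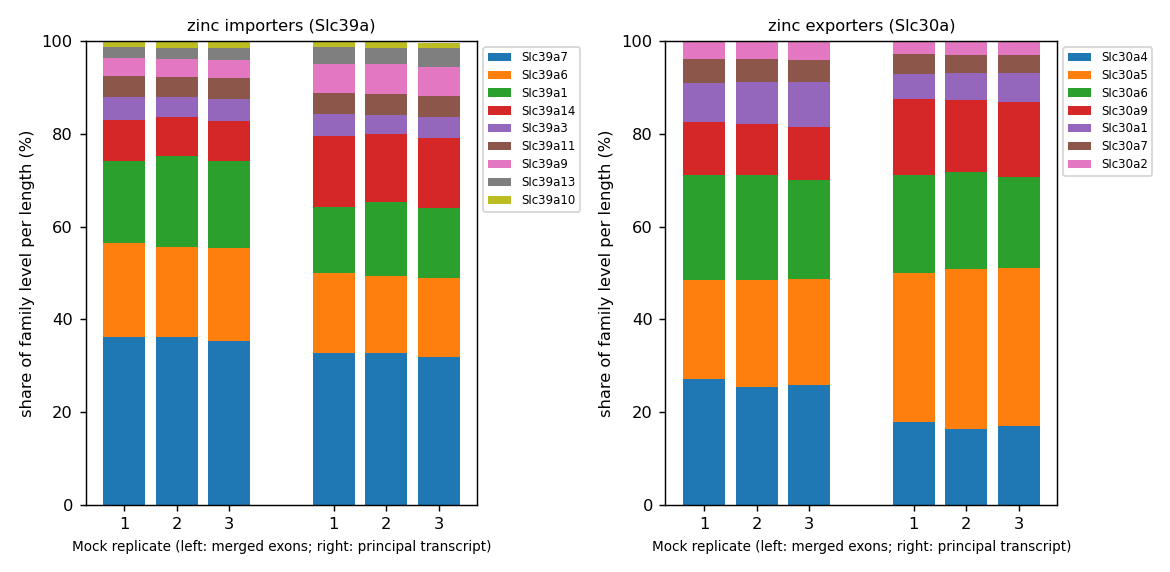
Share of each gene in the summed level per length of its family (percent), in each Mock replicate, by merged exons (the bars on the left of each panel) and principal transcripts (those on the right), for the genes with a mean share above 1% by merged exons. The composition is nearly the same in the 3 libraries. Slc39a7 holds 35.9% of the importer level by merged exons and 32.5% by principal transcripts, and Slc30a5 holds 22.5% and 33.6% of the exporter level.

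Genes for copper uptake, pumping and delivery were transcribed, and of the paired pumps Atp7a was far above Atp7b. Of 7 copper genes, 6 were above 1 CPM. Slc31a1, the high-affinity copper importer, stood at 262.6, 277.5 and 263.5 CPM (268 ± 8.36 CPM). Slc31a2, an intracellular relative, reached 23.6 ± 3.65 CPM. Atp7a, the pump that carries copper into the Golgi and melanosomes, stood at 58.12, 58.93 and 60.14 CPM (59.1 ± 1.01 CPM). Atp7b, the pump of liver, had 15, 12 and 6 reads, or 1.17 ± 0.491 CPM, and could not be placed above or below 1 CPM (edgeR adjusted p = 0.496). Its libraries lay on both sides of 1 CPM.

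Per kilobase of merged exon, Slc31a2 was below Slc31a1 at a log2 ratio of -2.44 ± 0.22, and Atp7b was below Atp7a at -5.26 ± 0.68, or 38.4-fold. Both are limma calls, beside 94.2% of all genes below and 5.12% above Slc31a1, and 54.8% below and 41.6% above Atp7a. By principal transcripts the ratios were -2.48 and -6.10. Slc31a1 was above Atp7a by 3.21 ± 0.05 on the log2 scale per kilobase of merged exon and by 2.58 per kilobase of principal transcript, a difference given without a test.

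Among the copper chaperones, Atox1, which feeds the copper pumps, was the most abundant. It stood at 112.9, 120.6 and 125.7 CPM (120 ± 6.42 CPM). Ccs, the chaperone of superoxide dismutase Sod1, reached 26.1 ± 1.75 CPM, and Cox17, which brings copper to cytochrome oxidase assembly, 25.8 ± 2.81 CPM. Per kilobase of merged exon Atox1 stood at 221 ± 11.9, and both others were lower, with log2 ratios of -3.92 ± 0.11 for Ccs and -5.63 ± 0.11 for Cox17 (limma), as were 98.7% of all genes, with 1.14% above. The merged exons of Cox17 span 5773 bases, its whole locus, because some annotated forms keep introns, whereas its principal transcript has 444. On principal transcripts Cox17 was lower than Atox1 by a log2 ratio of -1.93 and stood above Ccs (58.1 ± 6.34 against 24.4 ± 1.64 CPM per kilobase). The protein-coding model Gm21987 overlaps 257 exon bases of Cox17 on the same strand and had no row in the table. The level of Cox17 is therefore uncertain to the extent that reads were divided between them.

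The promoter of Atp7a is shown because it holds the E-box CACGTG, a word that Mitf, a central regulator of pigment cells, shares with other factors. The window (chrX:106026974-106027253, plus strand, GRCm38.p6, RefSeq) runs from 250 bases before to 30 after the annotated start, with the E-box in capitals and its 2 metal response words left in lower case.
Atp7a: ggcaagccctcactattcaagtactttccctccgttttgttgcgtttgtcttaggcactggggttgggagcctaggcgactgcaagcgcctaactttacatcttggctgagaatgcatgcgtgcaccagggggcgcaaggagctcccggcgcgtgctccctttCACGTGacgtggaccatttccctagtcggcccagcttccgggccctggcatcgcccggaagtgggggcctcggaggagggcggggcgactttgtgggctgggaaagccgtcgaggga

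That word lies 87 to 82 bases before the start. It occurred in 4 member windows (11.8%), those of Atp7a, Slc30a5, Slc31a2 and a start of Slc39a8, beside 6.79% of all windows, a difference not tested. Mitf itself stood at 135 ± 6.80 CPM, and its binding to these windows was not tested. Slc39a8 had no counts.

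The enzymes that receive copper differed widely in level. Tyr, the copper enzyme supplied through Atp7a, reached 6.56 ± 0.831 CPM. Its counts were fractional, so its level is uncertain to the extent that reads were divided with other genes. Per kilobase of merged exon its log2 difference from Atp7a was -2.88 ± 0.16 (0.923 against 6.76) and -3.48 per kilobase of principal transcript. Its relatives Tyrp1 and Dct, melanosomal enzymes that bind zinc in place of copper, were 9.33 ± 0.03 and 6.09 ± 0.03 log2 units above Atp7a by merged exons, and 8.56 and 6.68 by principal transcripts. These differences were not tested. The dismutase gene Sod1 stood at 315 ± 13.6 CPM. It was 2.44 ± 0.04 log2 units above its chaperone gene Ccs by merged exons and 4.33 by principal transcripts.

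A further list held copper enzymes, genes of copper supply and, as relatives of Tyr, the zinc enzymes Tyrp1 and Dct. Of its 26 measured genes, 20 were above 1 CPM by edgeR, beside 62.0% of all rows of the table, Aoc3 was below and Loxl4 had no call. The highest besides Tyrp1 and Dct were Slc25a3, which carries copper and phosphate into mitochondria, at 840 ± 13.3 CPM and Cp, the copper oxidase ceruloplasmin, at 467 ± 5.89 CPM. The mitochondrial copper assembly genes Sco1, Sco2, Cox11 and Cox19 lay between 21.1 and 36.9 CPM. The reductase gene Steap2 stood at 84.8 ± 2.78 CPM. Dbh, Lox, Heph and Hephl1 had no counts, and Aoc3 had 14 reads (0.496 ± 0.162 CPM). The median of this list was 27.9 CPM, beside 12.61 CPM over all rows.

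Manganese carriers were uneven. Slc39a14 was abundant, whereas its close relative Slc39a8 and the exporter Slc30a10 had no counts. Slc11a1, the phagosomal carrier known from macrophages, had 5, 2 and 2 reads (0.319 ± 0.186 CPM) and was below 1 CPM by edgeR (adjusted p = 0.00691, up to 0.0615 over the alternatives). Of the 5 leukocyte markers measured, Csf1r, Adgre1 and Tyrobp had no counts, Laptm5 had 8 reads and Ncf1 had 1, and their part in the reads of Slc11a1 was not tested. Its widely expressed paralog Slc11a2 stood at 84.3 ± 4.27 CPM. Per kilobase of merged exon Slc39a14 was 0.61 ± 0.06 log2 units above Slc11a2 (20.3 against 13.3), not tested.

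Of 10 other genes of manganese transport and use, 7 were above 1 CPM, a share near the 62.0% of all rows. Glul, glutamine synthetase, reached 216 ± 2.24 CPM, the Golgi manganese carrier gene Tmem165 83.3 ± 4.79 CPM, and the mitochondrial dismutase gene Sod2 58.5 ± 1.78 CPM. The Golgi pump gene Atp2c1 stood at 36.7 ± 0.224 CPM, while its paralog Atp2c2 was below 1 CPM with 5 reads. Arg2 had 1 read and was below, and Arg1 had no counts. Of 9 other zinc genes, 5 were above 1 CPM, again near the 62.0% of all rows: Trpm7, a zinc-permeable channel kinase, at 165 ± 4.98 CPM, Tmc6 at 105 ± 6.30 CPM, the lysosomal channel gene Mcoln1 at 64.7 ± 1.29 CPM, Tmc8 at 38.8 ± 3.27 CPM and the zinc chaperone gene Cbwd1 at 25.7 ± 0.790 CPM. The alkaline phosphatase genes Alpl and Alppl2, zinc enzymes of the secretory pathway, had 1 read each and were below. The vesicular zinc exporter gene Tmem163 and the zinc receptor gene Gpr39 had no counts.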

How the data were processed

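RNA of 3 Mock samples of B16 cells was sequenced. Per the labels' protocols, RNA was extracted with a NucleoSpin kit and BGI made the libraries. The submitters' processing notes name GRCm38.p6 as the build. Aligner, counting tool, annotation, filters and strandedness were not given in the sources used here. Values in the authors' deposited table are estimated counts by gene symbol, not normalized, with 1 column per sample.

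From these, CPM values were computed as deposited counts over library totals scaled by TMM factors (edgeR 4.0.16, R 4.3.3). Counts were rounded for tests, which left 14408 genes with at least 1 count. Levels were tested against 1 CPM in edgeR (quasi-likelihood, intercept alone), two-sided, with Benjamini-Hochberg adjustment over those genes and a threshold of 0.05. Ratios within a library used log2 of counts plus 0.5 per kilobase, and limma 3.58.1 with a mean-variance trend over 14095 genes. Reference genes were Slc39a1, Slc30a1, Mt1, Slc31a1, Atp7a and Atox1. Exon lengths, positions and overlaps came from GENCODE M21 (GRCm38), matched by symbol. Variation between libraries was tested by Poisson deviance on 2 degrees of freedom. DESeq2 1.42.0, an exact Poisson test, other scaling, filters and lengths, and leaving out each replicate were alternatives. Fits were also run on simulated counts, and no result given here rests on that run. The members and lists were chosen with earlier results of these data known. All 35 members are named, and of the copper, manganese and zinc lists the 4 highest and those below 1 CPM or without counts. Marker lists are given as counts and sums. Further genes of these lists were named after their values were seen. Of the listed genes, Loxl1, Steap4, Ptprc, Cd3e, Rbfox3, Krt5, Ins1, Ins2, Gcg and Fabp2 had no row and were not analysed here.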

Additional observations from a re-analysis of the deposited data

How the results depend on the processing

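Counts of members above 1 CPM (25) did not change under any alternative run. The 4 members below 1 CPM rest on 1 to 12 reads each: 1 was called with a minimum of 10 counts, since the other 3 had fewer, and 0 to 3 with each replicate left out, 2 without replicate 1 and 0 without replicate 2. DESeq2's Wald test called 0 members below, with 2 at an unadjusted p under 0.05 (Slc11a1 and Slc39a4), and the exact Poisson test called 4. Without replicate 2 edgeR likewise left 2 at an unadjusted p under 0.05, Slc39a4 and Slc11a1 (edgeR adjusted p = 0.0504 and 0.0515). Slc30a3 was not tested there, since its only read was in replicate 2. Atp7b, without a call throughout, had a log2 CPM of 0.23, and of -0.0701 (without replicate 1) to 0.524 with each replicate left out. Variation was called in 2 members with library totals, Mt2 joining Mt1, and in 0 to 2 with each replicate left out: 0 without replicate 2 (Poisson deviance, 4 at an unadjusted p under 0.05) and 2 without replicate 3. With no length correction the log2 ratio turned to -0.23 for Mt2 against Mt1, 0.25 for Slc30a7 against Slc30a1 and 1.05 for Slc39a14 against Slc39a1. With principal transcript length, an alternative chosen after seeing the data, Mt2 stood at -0.13. These turns follow from the lengths alone, which shift each ratio by a constant. The counts of members per length above (6) and below (15) their references stayed within 6 to 8 and 13 to 15. No paired analysis was possible because all samples form a single group. Depth limits genes near 1 CPM, which collect about 28.2 reads in all, and strand and the division of shared reads are not known.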

Other observations

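Ranked by CPM per kilobase of merged exon among 16838 genes, Atox1 stood 170th beside Mt2 and Mt1 at ranks 22 and 59. Among the other copper genes Slc31a1 stood at rank 770, Ccs at 3645, Slc31a2 at 4349, Atp7a at 6117, Cox17 at 7295 and Atp7b at 11273. By principal transcripts the ranks were 303 for Atox1, 38 for Mt1, 49 for Mt2, 1132 for Slc31a1, 1438 for Cox17, 3495 for Ccs, 5502 for Slc31a2, 5752 for Atp7a and 11518 for Atp7b. Summed over the family per kilobase of merged exon, the 3 metallothionein genes reached 1359 ± 56.2 CPM per kilobase, the 13 importers 233.9 ± 3.70, the 10 exporters 47.1 ± 1.03 and the 7 copper genes 322 ± 14.9. By principal transcripts the sums were 2107 ± 94.2, 287.9 ± 3.80, 72.4 ± 1.30 and 401 ± 21. The order of the families was the same by both lengths. Atox1 alone made up 68.8 ± 0.853% of the copper sum by merged exons and 55.2 ± 1.05% by principal transcripts, so the place of the copper genes leans on that gene. In reads, with no length correction, the importers (943.6 CPM) stood above the copper genes (523.3 CPM). The copper sum was lowest in replicate 1 (304.7 CPM per kilobase) and the metallothionein sum was highest there (1414). No copper gene was called as varying between libraries, and a relation between the sums was not tested.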
